A study of Mus musculus with 22 samples.

Results

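The 10 genes described here (Fos, Fosb, Junb, Egr1, Egr3, Arc, Nr4a1, Ier2, Npas4 and Dusp1) are immediate early genes of nerve activity, chosen by symbol, and all 10 were found among the 55487 Ensembl genes of each of the 3 count tables. RNA was sequenced from mouse dorsal root ganglia (DRG), which hold the cell bodies of sensory neurons, and from cultured DRG neurons, in a study of periostin (POSTN, gene Postn), a secreted protein of the extracellular matrix that binds integrins, in psoriasis. The ganglia, of thoracic and lumbar levels, came from wild-type (WT) mice given vehicle (3 libraries), WT mice given imiquimod (IMQ, 2 libraries), mice labelled Postn knock out (KO) given vehicle (3 libraries) and KO mice given IMQ (2 libraries), all over 5 days. IMQ is a TLR7 agonist that causes psoriasis-like inflammation of the skin. The cultures were WT or KO neurons kept for 72 h without (control) or with recombinant POSTN (rPOSTN), with 3 libraries in each of the 4 groups. The labels used here give no age or sex, no number of animals per library and no design of the knock-out allele. Nothing in them says that libraries of a group came from separate mice or cultures, so each p measures the spread between these libraries, which may be technical. In the WT culture and WT IMQ groups it is not technical alone. There WT culture 3 and WT IMQ 2 differ from the others of their groups in sex-linked genes, as given below.

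Immediate early genes are silent or low in resting cells and are transcribed within minutes of a stimulus, without new protein synthesis, when calcium, cAMP or MAP kinase signals activate factors already bound at their promoters, such as CREB and the SRF complex. Their mRNAs and proteins are short-lived, and several of the products are transcription factors that switch on later genes. In sensory neurons they are known as markers of recent activity and of injury, and in dissociated cells of many tissues as markers of the dissociation itself.

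By role the 10 genes fall into 5 sets. Fos (ENSMUSG00000021250), Fosb (ENSMUSG00000003545) and Junb (ENSMUSG00000052837) encode subunits of AP-1, a dimeric transcription factor, and Egr1 (ENSMUSG00000038418) and Egr3 (ENSMUSG00000033730) encode zinc-finger transcription factors. Nr4a1 (ENSMUSG00000023034), an orphan nuclear receptor, and Npas4 (ENSMUSG00000045903), a bHLH-PAS factor induced in neurons by depolarization, are transcription factors as well. Arc (ENSMUSG00000022602) encodes a protein of neuronal synapses that governs the uptake of AMPA receptors, and Ier2 (ENSMUSG00000053560) a small nuclear protein. Dusp1 (ENSMUSG00000024190) encodes a phosphatase that switches MAP kinases off and so limits the same signals that induce the set.

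Promoter sequences were at hand for 6 of the 10 members (Fos, Fosb, Junb, Nr4a1, Npas4 and Dusp1), from RefSeq on GRCm38.p6. No entry was matched for Egr1, Egr3, Arc and Ier2. The 250 bases before the start of 4 of them are printed 5′ to 3′ on the strand of the gene, because these 4 span the range of the differences described below: Fos and Dusp1 were among the members with the largest gap between cultures and ganglia, Nr4a1 had the smallest gap that passed the test, and Npas4 had none that did. They are Fos at chr12:85473640-85473889 (plus strand), Nr4a1 at chr15:101266596-101266845 (plus strand), Npas4 at chr19:4989972-4990221 (minus strand) and Dusp1 at chr17:26508473-26508722 (minus strand). Capitals mark the motifs found on either strand.
Fos: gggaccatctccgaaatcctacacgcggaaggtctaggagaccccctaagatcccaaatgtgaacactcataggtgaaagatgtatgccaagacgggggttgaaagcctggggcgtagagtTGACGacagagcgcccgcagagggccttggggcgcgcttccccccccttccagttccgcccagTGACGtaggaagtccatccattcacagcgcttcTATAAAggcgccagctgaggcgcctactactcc
Nr4a1: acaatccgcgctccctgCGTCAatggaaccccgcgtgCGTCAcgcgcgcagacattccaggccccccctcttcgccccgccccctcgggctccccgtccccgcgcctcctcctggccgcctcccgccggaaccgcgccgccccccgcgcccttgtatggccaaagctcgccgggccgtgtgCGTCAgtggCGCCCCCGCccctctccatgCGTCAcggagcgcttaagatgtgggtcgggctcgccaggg
Npas4: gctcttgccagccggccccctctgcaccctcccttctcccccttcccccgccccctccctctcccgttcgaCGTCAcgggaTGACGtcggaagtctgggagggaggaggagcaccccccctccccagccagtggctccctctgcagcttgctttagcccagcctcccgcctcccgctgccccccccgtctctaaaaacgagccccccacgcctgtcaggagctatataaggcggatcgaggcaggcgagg
Dusp1: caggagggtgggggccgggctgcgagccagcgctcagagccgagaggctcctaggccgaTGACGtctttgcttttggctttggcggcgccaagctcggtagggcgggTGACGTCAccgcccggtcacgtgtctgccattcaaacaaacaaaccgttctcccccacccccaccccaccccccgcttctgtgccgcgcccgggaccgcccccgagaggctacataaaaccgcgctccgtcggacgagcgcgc
The search covered both strands for the CArG box of SRF, the full cAMP response element TGACGTCA, its core TGACG (which also lies inside the full element), the AP-1 sites TGACTCA and TGAGTCA (each the reverse complement of the other), the EGR sites GCGTGGGCG and GCGGGGGCG, and the TATA box TATAAA. The core TGACG was in all 6 promoters, with 2 matches in Fos, 1 in Fosb, 1 in Junb, 4 in Nr4a1, 2 in Npas4 and 3 in Dusp1, and 17.8% of 32851 promoters of the same length held it. The full element was in Dusp1, from 143 to 136 bases before the start, and in 1.55% of all promoters. GCGGGGGCG was in Fosb and Nr4a1 and in 2.57% of all promoters. TATAAA was in Fos, from 33 to 28 bases before the start, and in 12.4% of all promoters. These windows of the 6 members held no CArG box (1.47% of all promoters), no AP-1 site (4.46%) and no GCGTGGGCG (0.536%). A match describes the letters only and is neither a bound site nor a cause of the values below. The core was in the promoter of Npas4, whose difference between cultures and ganglia did not pass the test, as well as in those of the 5 members whose difference did.

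Postn itself was checked first. It was at 21.9 to 28.0 counts per M (CPM, M standing for mega, on library sizes scaled by the TMM method) in WT vehicle ganglia and 3.63 to 5.35 CPM in KO vehicle ganglia, and at 46.2 and 52.5 CPM in WT IMQ against 4.69 and 7.86 CPM in KO IMQ. In culture it was at 655 to 960 CPM in WT and 67.0 to 104 CPM in KO cultures 1 and 2. The libraries labelled KO culture 3 stood apart with 382 CPM (control) and 426 CPM (rPOSTN). WT IMQ 2 was the only ganglion library with almost no Xist, an RNA made from the silenced X, and with Y-linked counts, so it differs from the other IMQ library in more than replicate number. Among the cultures, WT cultures 1 and 2 had Xist under 1 CPM and Y-linked counts, WT culture 3 had Xist at 1142 and 1203 CPM and no Y-linked count, and the KO cultures had both (Xist 565 to 1164 CPM, 4 Y-linked genes summing to 44.0 to 95.7 CPM). The vehicle ganglia, with Xist at 204 to 251 CPM and no Y-linked count, thus differ in these genes from the cultures they are compared with below, and the part of this in the results was not tested. Total counts ran from 16.7 to 24.1 M per library. The neuron marker list (8 genes, among them Rbfox3, Tubb3 and Calca) summed to 9867 to 13137 CPM in ganglia and to 4876 to 6725 CPM in cultures, so neuronal RNA was present in both.

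The differences of these genes that passed the test lay between cultures and ganglia, and the largest in WT was that of Arc. It was at 1.98, 2.07 and 2.35 CPM in the 3 WT vehicle ganglia and at 22.5, 24.6 and 17.4 CPM in the 3 WT control cultures. In KO it was at 2.52, 2.37 and 2.62 CPM in vehicle ganglia and at 23.3, 20.8 and 21.7 CPM in control cultures. Every culture library therefore lay far above every ganglion library, by 10.1-fold in WT (log2 3.33 ± 0.18 SE, adjusted p = 3.89e-07) and 8.61-fold in KO (log2 3.11 ± 0.17, adjusted p = 2.59e-07; edgeR's quasi-likelihood test, adjusted by Benjamini and Hochberg's method across the whole table, as for every adjusted p below unless named).

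Of the AP-1 subunits, Fos was at 6.49, 9.10 and 12.8 CPM in WT vehicle ganglia and at 83.8, 88.8 and 77.6 CPM in WT control cultures. In KO it was at 8.07, 7.74 and 8.59 CPM against 64.7, 73.6 and 96.0 CPM. The groups did not overlap in either genotype, and Fos was 8.79-fold higher in WT cultures (log2 3.14 ± 0.20, adjusted p = 1.03e-06) and 9.45-fold higher in KO cultures (log2 3.24 ± 0.17, adjusted p = 2.6e-07). Junb, at 11.6 to 15.1 CPM in the 6 vehicle ganglia and 67.4 to 103 CPM in the 6 control cultures, was higher by log2 2.51 ± 0.11 in WT and 2.67 ± 0.18 in KO. Fosb stayed low in both tissues, at 0.819 to 2.24 CPM in vehicle ganglia and 2.66 to 5.64 CPM in control cultures, and its smaller difference of log2 1.37 ± 0.32 in WT (adjusted p = 0.00366) and 1.84 ± 0.32 in KO (adjusted p = 0.000523) passed the test. In the annotation used for exon lengths, Junb shares 7.52% of its exon bases with Prdx2 on the opposite strand. Reads from that stretch cannot be assigned without strand, and for the strand setting of the counting no value is given in the sources used here.

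The EGR factors were also higher in culture. Egr1 was at 12.7, 26.6 and 31.2 CPM in WT vehicle ganglia and at 91.1, 102 and 92.8 CPM in WT control cultures. In KO it was at 16.6, 24.8 and 22.4 CPM against 94.1, 84.9 and 139 CPM. Its groups were separate in both genotypes, at log2 2.03 ± 0.26 in WT and 2.29 ± 0.21 in KO. Egr3 was at 4.14 to 11.1 CPM in the 6 vehicle ganglia and 18.5 to 30.4 CPM in the 6 control cultures, which is log2 1.65 ± 0.30 in WT and 2.06 ± 0.19 in KO.

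Dusp1, the MAP kinase phosphatase, was at 24.5, 26.0 and 31.0 CPM in WT vehicle ganglia and at 147, 148 and 154 CPM in WT control cultures, and at 26.7, 28.3 and 24.3 CPM against 167, 184 and 154 CPM in KO. The culture libraries were close together and all above the ganglia, by 5.53-fold in WT (log2 2.47 ± 0.10) and 6.26-fold in KO (log2 2.65 ± 0.13). Ier2, at 5.44 to 9.39 CPM in the 6 vehicle ganglia and 22.6 to 30.8 CPM in the 6 control cultures, was higher by log2 1.94 ± 0.13 in WT and 1.76 ± 0.20 in KO.

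Nr4a1 and Npas4 stood apart from the other 8. Nr4a1 was already at 48.5, 46.6 and 53.6 CPM in WT vehicle ganglia and at 73.5, 70.4 and 62.9 CPM in WT control cultures. In KO it was at 40.6, 37.6 and 32.6 CPM against 68.0, 59.3 and 81.1 CPM. These groups did not overlap, but the difference was only 1.40-fold in WT (log2 0.48 ± 0.10, adjusted p = 0.0017) and 1.85-fold in KO (log2 0.89 ± 0.15, adjusted p = 0.00048). Npas4 was at 0.742, 0.558 and 0.800 CPM in WT vehicle ganglia and at 0.842, 0.474 and 0.708 CPM in WT control cultures. In KO it was at 0.819, 0.387 and 0.725 CPM against 0.290, 1.15 and 0.145 CPM. Its groups overlapped and no difference passed the test, at log2 −0.04 ± 0.34 in WT (95% interval −0.80 to 0.72, adjusted p = 0.916) and −0.29 ± 0.68 in KO (−1.82 to 1.23, adjusted p = 0.72). Over the 22 libraries Npas4 had 3 to 23 counts each, so a difference smaller than those intervals was not detectable at this depth.

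Counted together, 9 of the 10 members were called higher in culture and none lower at an adjusted p below 0.05, in WT and in KO alike, the exception being Npas4. The background for these counts is high: in WT 72.1% of 17065 genes tested were called in either direction and 36.1% were called higher, and in KO 65.6% of 17184 were called and 32.6% called higher. The median log2 difference of the members was 1.98 in WT and 2.18 in KO, beside −0.01 in WT and −0.00 in KO over all genes tested. The WT difference of Arc was above that of 96.9% of the genes tested and that of Fos above 96.5%, while that of Nr4a1 was above 67.9%. Over all 22 libraries, 8 members had every one of the 12 culture libraries above every one of the 10 ganglion libraries, as did 23.5% of 19546 genes. Of the other 2, Nr4a1 had 1 culture library, KO rPOSTN 2 at 41.9 CPM, within the ganglion range, and Npas4 had 9. The count of 9 was the same with DESeq2, with every other setting tried and with any 1 library left out, KO control culture 3 and each vehicle ganglion included. Whether the differences in WT and KO differ from each other was not tested.

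The tissues were sequenced as separate tables, so dissociation, 72 h in culture, the mix of cells and any difference between the tables cannot be told apart here. In these bulk samples fewer cells of a type and less RNA per cell cannot be told apart either. Several marker lists moved with the difference. Among all genes tested, 36.1% were called higher and 36% lower in WT, and 32.6% and 33% in KO. Of the neuron markers 7 of 8 were called lower in culture in each genotype, and the remaining 1, Prph, did not pass the test. Of the Schwann cell list (6 genes, among them Sox10) 5 were called lower and 1 higher in each genotype, and the satellite glia list (6 genes, among them Fabp7 and Apoe) summed to 3184 to 4662 CPM in ganglia and 1796 to 2528 CPM in cultures. The proliferation list (4 genes, among them Mki67 and Top2a) was higher for 4 of 4 genes, from 5.66 to 22.6 CPM in ganglia to 57.7 to 187 CPM in cultures, and the endothelial list (6 genes) summed to 65.4 to 131 CPM against 160 to 240 CPM. The fibroblast list (6 genes) summed to 1225 to 2228 CPM in ganglia and 562 to 1400 CPM in cultures, and the erythroid list (4 genes) to 19.7 to 429 CPM and 0.643 to 3.89 CPM. The part of these cells in the differences of the members was not tested.

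**Figure D1:**
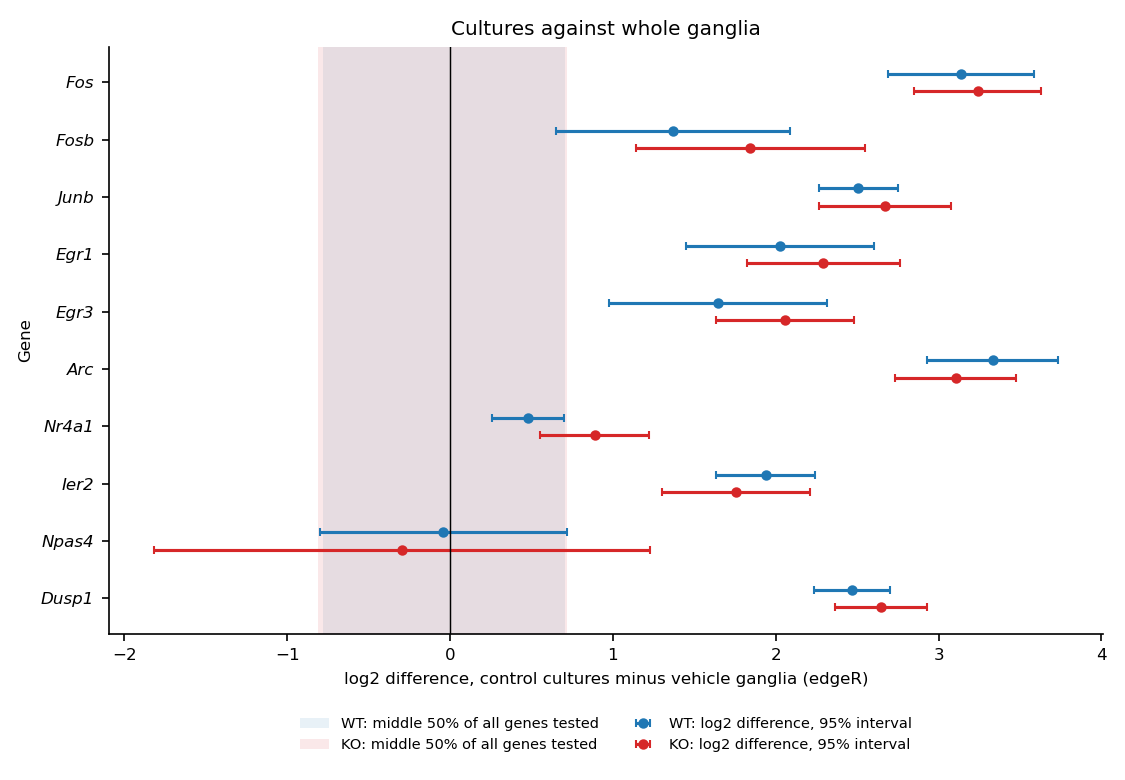
Log2 difference between control cultures and vehicle ganglia for the 10 members, WT and KO as separate points with 95% intervals, and a line at 0 for no difference. The members other than Npas4 have intervals above 0 in both genotypes, from 0.48 for Nr4a1 to 3.33 for Arc in WT, and Npas4 crosses 0.

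Other early genes, from lists that did not include the members, were mostly higher in culture too. The background is the share of all genes tested: 36.1% called higher and 36% lower in WT, and 32.6% and 33% in KO. Of 9 other AP-1 subunits tested, 7 were called higher and 1 lower in each genotype (median log2 1.95 in WT and 1.95 in KO). Atf3, a stress-induced factor that dimerizes with Jun proteins and marks injured sensory neurons, was higher by log2 4.46 ± 0.16 in WT and 4.97 ± 0.16 in KO, from 20.9 to 460 CPM as WT means. Fosl2, Maff and Mafk were higher by log2 2.62 ± 0.12, 2.48 ± 0.12 and 1.73 ± 0.09 in WT. The subunit that was lower was Jund, at log2 −2.34 ± 0.15 in WT and −2.83 ± 0.22 in KO, so AP-1 subunits did not all differ in 1 direction.

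Of 26 other early-induced transcription factors tested, 24 were called higher and 1 lower in each genotype. Among all genes tested, 36.1% were called higher in WT and 32.6% in KO. Ier5l and Ier5, relatives of Ier2, were higher by log2 4.50 ± 0.12 and 3.55 ± 0.14 in WT, Myc by 2.07 ± 0.09 and Klf10 by 1.73 ± 0.08. In KO the 4 with the smallest p were Cebpb (3.62 ± 0.20), Klf10 (1.98 ± 0.11), Atf4 (1.83 ± 0.11) and Ier5 (3.05 ± 0.19). Klf2, a factor with high levels in endothelium, was the 1 that was lower, at log2 −1.34 ± 0.23 in WT and −0.95 ± 0.27 in KO.

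Among the 15 relatives of Dusp1 and other feedback inhibitors of MAP kinase signalling, 12 were called higher and 2 lower in WT, and 9 higher and 2 lower in KO. Shares of all genes called higher, 36.1% in WT and 32.6% in KO, are the background for both lists in this paragraph. Dusp7, Dusp10, Dusp6 and Dusp4 were higher by log2 2.91 ± 0.10, 3.16 ± 0.13, 2.36 ± 0.12 and 4.44 ± 0.28 in WT, and Dusp5 (−0.37 ± 0.10) and Dusp8 (−0.32 ± 0.10) were lower, the call of Dusp8 being lost without WT vehicle 3 or without WT control culture 2 (log2 −0.38 to −0.25 over all alternatives). Of 33 early-induced genes of mRNA decay, growth arrest and signalling, 27 were called higher and 2 lower in each genotype. They included Trib1, Ppp1r15a and Cdkn1a, at log2 3.09 ± 0.10, 2.52 ± 0.10 and 2.29 ± 0.10 in WT, while Rgs4 and Rgs2, inhibitors of G protein signalling, were lower at −2.31 ± 0.11 and −0.94 ± 0.15.

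The genes of the late-response list, most of which activity induces after the immediate early ones, did not share 1 direction, and neither did all genes tested. Of all genes 36.1% were called higher and 36% lower in WT, and 32.6% higher and 33% lower in KO. Of 18 tested, 8 were called higher and 9 lower in WT, and 9 higher and 9 lower in KO. Ptgs2, the inducible cyclooxygenase, was at 20.0 CPM in WT cultures against 0.829 CPM in WT ganglia as means (log2 4.56 ± 0.33), and Vgf, Inhba and Adcyap1 were higher by 1.95 ± 0.18, 3.38 ± 0.31 and 1.08 ± 0.11. Nrn1 was lower by far, at 595 against 18.1 CPM (log2 −5.03 ± 0.12), and so were Tac1 (−3.35 ± 0.14), the gene of substance P, Sorcs3 (−3.15 ± 0.21) and Nptx1 (−2.41 ± 0.17).

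The kinases and factors upstream of the members were split as well, with 18 of 42 called higher and 17 lower in WT, and 12 higher and 18 lower in KO. All genes tested were split too, so this is no trait of the list. Their shares, the background for each list in this paragraph, were 36.1% higher and 36% lower in WT. In KO they were 32.6% and 33%. Atf1, a close relative of CREB, was higher by log2 2.05 ± 0.12 in WT and 2.14 ± 0.15 in KO, while Camk2a was lower at −2.33 ± 0.09 in WT. Of 16 heat shock and dissociation stress genes, 7 were called higher and 3 lower in WT, and 5 higher and 7 lower in KO. Hmox1 (log2 2.57 ± 0.11 in WT) was the largest of the higher ones, and Dnaja1 and Hspa8 were lower in both genotypes, at −0.80 ± 0.08 and −0.40 ± 0.12 in WT, where the call of Hspa8 was lost without WT control culture 1 or 2. Of 16 SRF targets of the actin cytoskeleton, 9 were called higher and 3 lower in WT, and 7 higher and 3 lower in KO. Flna, Tpm4, Tagln2 and Zyx were higher by log2 2.19 ± 0.09, 1.93 ± 0.09, 1.81 ± 0.11 and 1.42 ± 0.09 in WT, and the smooth muscle genes Tagln (56.0 against 0.182 CPM), Myl9 and Cnn1 were lower.

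Levels can be compared between genes only per length of exon. In CPM per kb of exon, as means of the 3 WT vehicle ganglia, the order was Nr4a1 (14.1), Dusp1 (8.20), Junb (5.97), Egr1 (5.24), Ier2 (4.39), Fos (4.03), Egr3 (1.57), Arc (0.697), Fosb (0.251) and Npas4 (0.169). In the 3 WT control cultures it was Dusp1 (45.2), Fos (35.5), Junb (33.9), Egr1 (21.3), Nr4a1 (19.6), Ier2 (16.8), Arc (7.03), Egr3 (4.92), Fosb (0.653) and Npas4 (0.163). Nr4a1 thus moved from the highest place in ganglia to the fifth in cultures, and Arc passed Egr3. For 9 members the mean of each of the 4 culture groups was above the mean of each of the 4 ganglion groups, a count for which the share over all genes was not computed. Within a tissue, groups next to each other in that order overlapped in their libraries, except that every WT vehicle ganglion was above every KO IMQ ganglion for Nr4a1 and every KO vehicle ganglion above every WT vehicle ganglion for Arc. Npas4 had no order by tissue.

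IMQ over 5 days changed none of the 10 members in WT ganglia past the test, where 1.3% of 17197 genes were called. Nr4a1 came nearest. It was at 33.2 and 37.8 CPM in the IMQ libraries, both below the 46.6 to 53.6 CPM of the vehicle libraries, a difference of log2 −0.49 ± 0.16 (95% interval −0.84 to −0.13, unadjusted p = 0.0125, adjusted p = 0.345). It was the 1 member with an unadjusted p under 0.05, as were 1251 of all genes, and DESeq2 called none of the members and 358 genes. Leaving out any 1 library gave log2 −0.40 to −0.57 for Nr4a1, the latter without WT IMQ 2, the library that stood apart.

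The other 9 members gave smaller or less certain values in that comparison. Arc was at 2.57 and 2.50 CPM with IMQ, just above the 1.98 to 2.35 CPM of the vehicle libraries (log2 0.25 ± 0.26, 95% interval −0.34 to 0.83). Fos, at 8.09 and 11.1 CPM, lay inside the vehicle range of 6.49 to 12.8 CPM, and so did Egr1 at 18.5 and 26.9 CPM and Egr3 at 5.14 and 5.69 CPM. For these 3 genes the 95% intervals of the log2 difference were −0.63 to 0.65, −0.98 to 0.87 and −1.15 to 0.43. A change of the size of 1.5-fold was thus not detectable for Fos and Egr1. For Egr3 a 1.5-fold fall lay inside the interval, and a rise of that size lay outside it. The median of the 10 members was log2 −0.09 with 7 below 0, beside −0.01 over all genes. The sign of that median rested on single libraries, since it was 0.10 without WT vehicle 3 and 0.13 without WT IMQ 1, and −0.34 without WT IMQ 2.

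In KO ganglia IMQ likewise changed none of the 10 members past the test, where 1.1% of 17197 genes were called. Ier2 had the smallest unadjusted p. It was at 5.40 and 4.31 CPM with IMQ, below the 9.39, 6.14 and 7.08 CPM of the vehicle libraries (log2 −0.64 ± 0.25, 95% interval −1.21 to −0.07, unadjusted p = 0.0308, adjusted p = 0.53), and at −0.44 without KO vehicle 1, the highest library. It was the 1 member with an unadjusted p under 0.05, beside 1442 genes in all, and DESeq2 called none of the members and 275 genes. Nr4a1 was at 31.2 and 43.2 CPM with IMQ, around the 32.6 to 40.6 CPM of vehicle (log2 −0.00 ± 0.16, 95% interval −0.35 to 0.35). The test of the difference between the genotypes in their IMQ change called none of the 10 members and 0% of 17197 genes. With edgeR no member had an unadjusted p under 0.05 there, against 364 genes in all, and DESeq2 called none of the members and 5 genes. For Nr4a1 that difference was log2 0.48 ± 0.22 (95% interval −0.01 to 0.98, unadjusted p = 0.0559, adjusted p = 0.999).

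Over the 8 related lists together IMQ changed 1 of 175 genes tested (0.571%) in each genotype, a share no higher than that over all genes. In WT ganglia Bdnf, a late-response gene that encodes a neurotrophin, rose from 44.3, 44.6 and 55.8 CPM to 78.4 and 78.7 CPM (log2 0.70 ± 0.12, adjusted p = 0.0193). The size held without any 1 library (0.64 to 0.82), but the call did not hold without WT vehicle 1 or 2, nor with the 2 groups fitted alone. It was also lost without either IMQ library (adjusted p = 0.173 without WT IMQ 2), a fit with 1 IMQ library that is assumed to vary like the other groups. In KO ganglia Nfkbiz, an early-induced regulator of NF-κB, rose from 4.73, 5.17 and 5.07 CPM to 24.7 and 10.8 CPM (log2 1.82 ± 0.30, adjusted p = 0.0212). That call was lost without any 1 of the 3 KO vehicle libraries and with the 2 groups fitted alone. Without KO IMQ 1, a fit with the same assumption, the difference was log2 1.10 (adjusted p = 0.137). In WT ganglia Nfkbiz was at 10.1 and 14.8 CPM with IMQ and 4.64 to 5.25 CPM with vehicle and was not called (log2 1.31 ± 0.31, adjusted p = 0.103). The other genes of the 8 lists were not called in either genotype. Macrophage markers moved with IMQ: the 7-gene list (among them Adgre1 and C1qa) summed to 72.5 to 105 CPM in vehicle ganglia and to 288 to 397 CPM in IMQ ganglia. Of its genes 6 of 7 were called higher in WT and 5 of 7 in KO, beside 1.12% and 1.09% of all genes tested. The part of these markers in the values of the members was not tested.

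**Figure D2:**
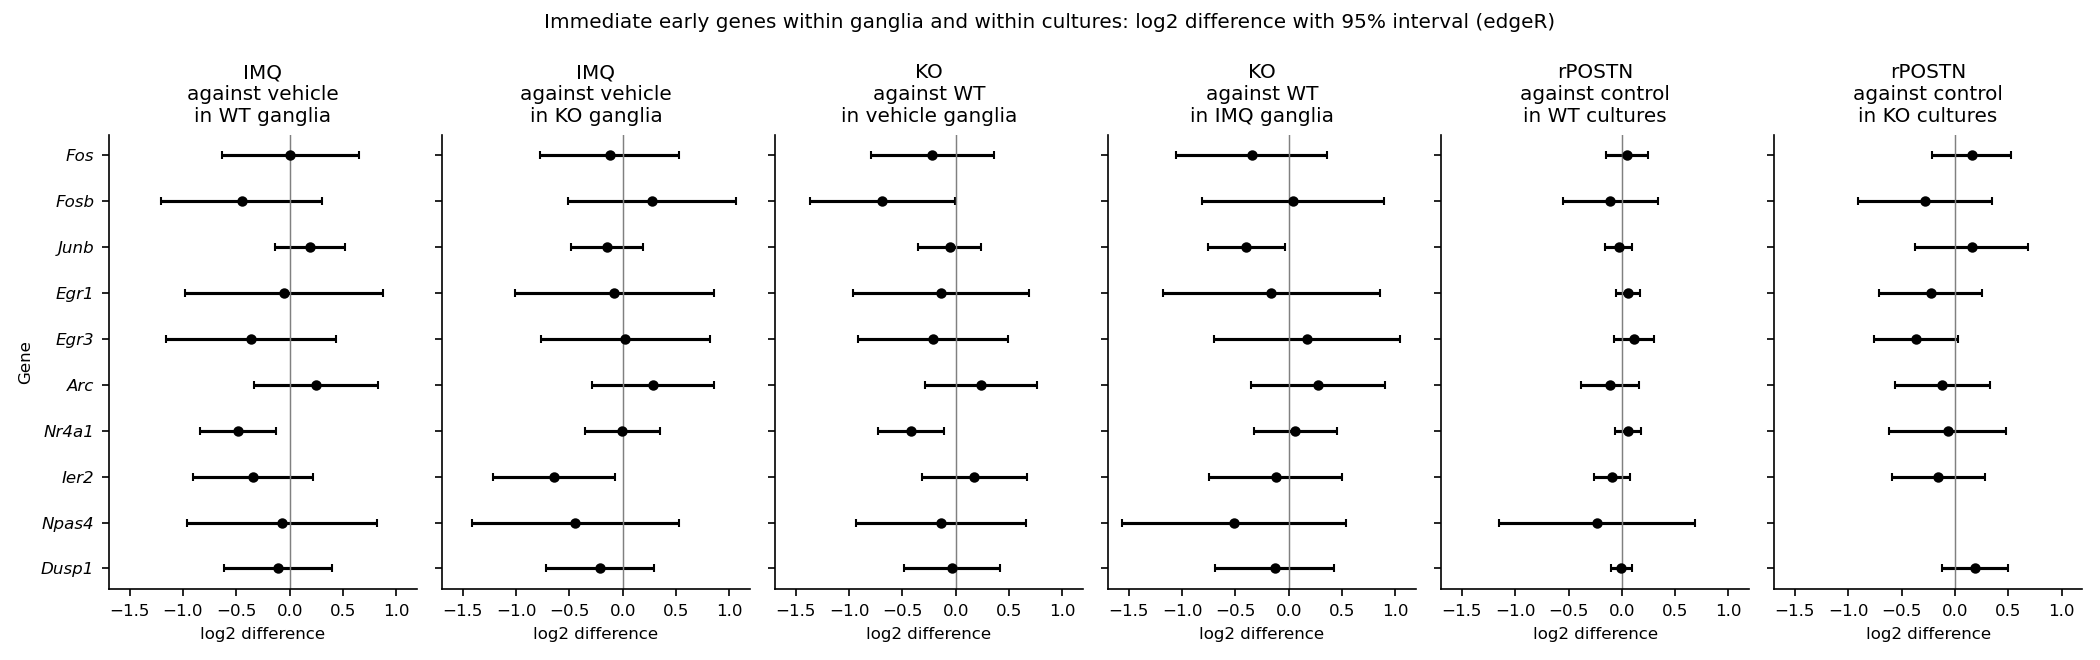
Log2 differences of the 10 members with 95% intervals for the comparisons within ganglia and within cultures, and a line at 0. The intervals that exclude 0 are few (for IMQ in ganglia, Nr4a1 in WT and Ier2 in KO), none of these passed the adjustment over all genes, and the intervals of the WT cultures are the narrowest by their median width, though not for Npas4.

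Knock-out of Postn gave no called difference in the members either. In vehicle ganglia 0 of 10 were called, and 0.0116% of 17197 genes (2 genes). Nr4a1 was at 40.6, 37.6 and 32.6 CPM in KO, below the 48.5, 46.6 and 53.6 CPM of WT (log2 −0.42 ± 0.14, 95% interval −0.73 to −0.11, unadjusted p = 0.0139, adjusted p = 1). Arc, at 2.37 to 2.62 CPM, lay above the 1.98 to 2.35 CPM of WT (log2 0.23 ± 0.23). Fosb had an unadjusted p of 0.0476 at log2 −0.69 ± 0.30, and was at −0.35 without WT vehicle 3, whose 2.24 CPM was the highest of the ganglia. In all 2 members and 530 genes had an unadjusted p under 0.05, and DESeq2 called none of the members and 30 genes. These fits did not use the replicate numbers, though residuals of same-numbered libraries were correlated. With the number as a replicate block, edgeR called none of the members and 3 genes. This comparison and that of IMQ in WT share the 3 WT vehicle libraries, so the lower values of Nr4a1 in both were measured against the same libraries. The Schwann cell list was lower in the same groups, with 6 of 6 genes below 0 in both comparisons and none called. Both of its comparisons rest on the same WT vehicle libraries as well. Over all genes the median log2 was −0.01 for IMQ in WT and 0.02 for KO against WT vehicle. The share of all genes below 0 in both was not computed. The part of the Schwann cell list in the values of Nr4a1 was not tested.

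In IMQ ganglia, KO against WT, 0 of 10 members and 0.00581% of 17197 genes (1 gene) were called. Junb was at 11.2 and 12.8 CPM in KO and 14.8 and 16.6 CPM in WT (log2 −0.40 ± 0.16, 95% interval −0.76 to −0.03, unadjusted p = 0.0354, adjusted p = 0.997). It was the 1 member with an unadjusted p under 0.05, beside 318 genes, and DESeq2 called none of the members and 4 genes. Nr4a1 overlapped between these groups (log2 0.06 ± 0.17, 95% interval −0.32 to 0.45). Without WT IMQ 2 the value for Junb was −0.32.

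Single libraries carried much of the spread in ganglia. WT vehicle 3 had the highest value of its group for all 10 members and the highest of the 10 ganglion libraries for 6 of them, and WT vehicle 1 had the lowest of the group for 8. The mean log2 deviation of 9 members from their mean over the ganglia, leaving out Npas4 because its mean was under 1 CPM, ran from −0.24 in KO IMQ 1 to 0.45 in WT vehicle 3. The members that deviated most alike were Fos, whose values correlated with the mean of the other 8 at r = 0.90 over the 10 ganglion libraries, Egr1 (0.70), Dusp1 (0.65) and Egr3 (0.64), while Ier2 (0.26) and Arc (−0.45) did not follow them. These correlations describe 10 libraries that share 4 groups, and WT vehicle 3 is 1 of the points in each.

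**Figure D3:**
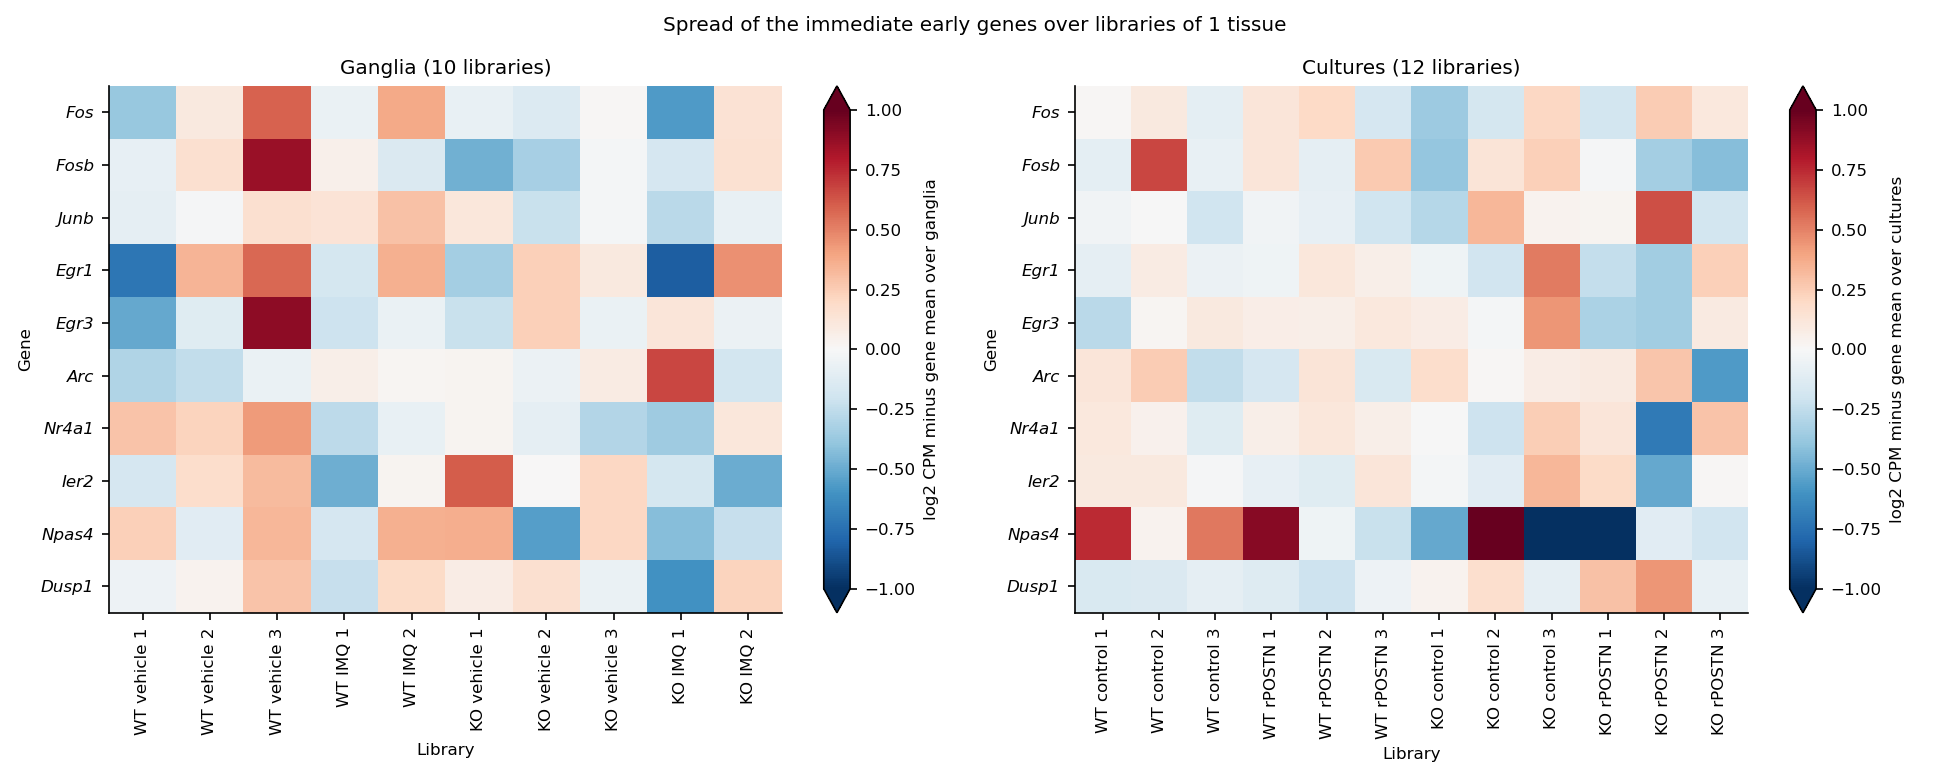
Log2 deviation of each member from its mean over the libraries of the tissue, 1 row per gene and 1 column per library, for ganglia and cultures apart. WT vehicle 3 is above the mean for most members and KO IMQ 1 below it for many, while KO rPOSTN 2 is high for Fos, Junb, Arc and Dusp1 and low for Egr1, Egr3, Nr4a1 and Ier2.

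In culture the members moved less as 1 set. The same mean deviation ran from −0.09 to 0.22, the highest being KO control 3, and the correlation with the mean of the other 8 over 12 libraries ran from 0.46 for Egr1 to −0.49 for Dusp1. KO rPOSTN 2 had the highest value of the 12 for Fos, Junb, Arc and Dusp1 (99.3, 129, 24.95 and 222 CPM) and the lowest for Egr1, Egr3, Nr4a1 and Ier2 (75.9, 17.5, 41.9 and 17.1 CPM).

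The genes most like the mean of the members were named by a fixed rule of correlation over the libraries of a tissue. In ganglia they were Arhgap39 (r = 0.907), Flot2 (0.895), Dgki (0.867), Ssbp3 (0.863) and Aars2 (0.863) among 12004 genes over 10 libraries. In cultures they were Kbtbd7 (0.836), Dnajc25 (0.810), Ccnj (0.791), Msto1 (0.779) and Dap (0.777) among 11712 genes over 12 libraries. The 2 sets share no gene, and with so few libraries such values are a description only.

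In WT cultures, kept for 72 h, rPOSTN changed none of the 10 members past the test, where 0% of 16639 genes were called. No earlier time was sampled, so an early change that had passed by then was not measured. With culture number as a replicate block 8 genes were called, and without the filter on low counts 2, none of them a member. Fos was at 90.2, 95.3 and 74.0 CPM with rPOSTN and 83.8, 88.8 and 77.6 CPM without, and Egr1 at 93.9, 105 and 101 CPM against 91.1, 102 and 92.8 CPM. Dusp1 was at 149, 142 and 158 CPM against 147, 148 and 154 CPM. All 10 members overlapped between the groups, a count for which the share over all genes was not computed. These were the most precise of the comparisons, with a median width of 0.36 for the 95% interval on the log2 scale: it was −0.15 to 0.25 for Fos, −0.05 to 0.17 for Egr1 and −0.10 to 0.09 for Dusp1, so a 1.5-fold change of these 3 lay outside it. The interval was wider for Fosb (−0.55 to 0.33) and for Npas4 (−1.15 to 0.69), and a 1.5-fold change of Npas4 lay inside it. With edgeR no member had an unadjusted p under 0.05, against 661 genes in all, and DESeq2 called no gene.

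In KO cultures 9 members could be tested, Npas4 being too low at 0.145 to 1.15 CPM, and none was called, as were 0% of 16756 genes. Without the pairing no member had an unadjusted p under 0.05 with edgeR, against 155 genes, and DESeq2 called no gene. In edgeR's fit with culture number as a replicate block Egr3 had an unadjusted p of 0.00978 and Egr1 of 0.0268, both at an adjusted p of 0.999, and no gene was called. Egr3 was at 17.9, 17.5 and 23.7 CPM with rPOSTN and 23.5, 22.0 and 30.4 CPM without (log2 −0.36 ± 0.18, 95% interval −0.75 to 0.03, unadjusted p = 0.0674, adjusted p = 1), and the difference was −0.21 without KO control 3, the library with the highest Egr3. Taken by culture number, the ratio of rPOSTN to control for Egr3 was 0.76, 0.79 and 0.78 in KO, all below 1, and 1.26, 1.02 and 1.01 in WT. For Egr1 it was 0.87, 0.89 and 0.82 in KO and 1.03, 1.02 and 1.09 in WT, and culture 3, the pair with the higher Postn, did not differ from the other KO pairs in direction for either gene. How large a share of all genes has ratios that separate by genotype in this way was not computed. Compared as groups and not as pairs, Egr1 in KO was at log2 −0.23 ± 0.21, and at 0.015 without KO control 3. Dusp1 had ratios of 1.19, 1.21 and 1.01 in KO (log2 0.19 ± 0.14).

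The test of the difference between the genotypes in their rPOSTN change called none of the members and 0% of 17519 genes. For Egr3 that difference was log2 −0.48 ± 0.21 (95% interval −0.92 to −0.03, unadjusted p = 0.0375, adjusted p = 1), or −0.32 without KO control 3, and for Egr1 −0.29 ± 0.25 (−0.84 to 0.26). Egr3 was the 1 member with an unadjusted p under 0.05, beside 342 genes, and DESeq2 called no gene. A replicate block within genotype, added after the data were seen, called 2 genes, neither of them a member, and had Egr1 under 0.05 as well as Egr3. Genotype and count table coincide in culture, so levels were not compared between WT and KO cultures, and the ratios above are each taken within a table. None of the genes of the 8 related lists was called in the rPOSTN comparisons.

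**Figure D4:**
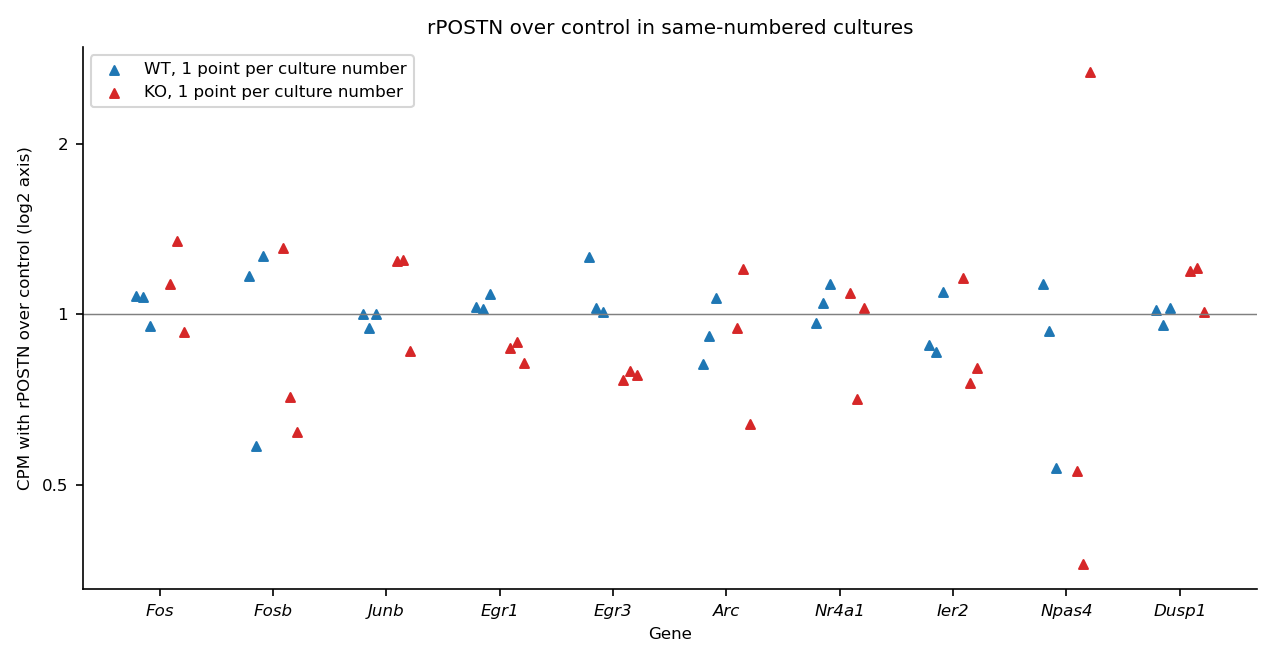
Ratio of rPOSTN to control CPM for each member within cultures 1, 2 and 3 of each genotype (log axis), with a line at 1 for no change. The 3 KO points of Egr3 (0.76 to 0.79) and of Egr1 (0.82 to 0.89) lie below 1 while the 3 WT points of both lie above it. The other members show no such separation of all 6 points. The share of all genes with such a separation was not computed, and neither gene was called.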

How the data were processed

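RNA was measured in 10 ganglion and 12 culture libraries, from poly-A selected, dUTP stranded, paired-read libraries per the labels' protocols. The values used are raw counts of reads per Ensembl gene, which the authors deposited as 1 table for ganglia and 1 for the cultures of each genotype. TopHat2, Bowtie2 2.2.3, HISAT2 2.1.0 and the build GRCm39 appear in the submitters' processing notes without a stated role. For the counting tool, its strand setting and the annotation release the entry is: not given in the sources used here. Of the 55487 genes, 55141 were given a symbol from GENCODE M21, which rests on GRCm38. Exon lengths come from the same annotation, and promoter sequences from RefSeq on GRCm38.p6.

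Every column was matched to 1 sample by its label. Genes were tested with edgeR 4.0.16 (robust quasi-likelihood test, two-sided, filterByExpr with a minimum count of 10, TMM) in R 4.3.3, with p adjusted by Benjamini and Hochberg's method across each comparison's genes and a threshold of 0.05. The 10 ganglion libraries shared 1 fit, each culture table had its own fit, the 12 culture libraries gave the genotype difference, and cultures were compared with ganglia within a genotype. Intervals are 95% intervals from the same fits, SE is the log2 change divided by the root of the F statistic, and mean deviations and correlations use log2 CPM with a prior count of 2. DESeq2 1.42.0, other size factors, no filter, a replicate block and leaving out each library were tried as alternatives. Python 3.11.15 drew the figures.

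All 10 members are named in every comparison. From 8 related lists, up to 4 called genes per direction and comparison were named by smallest p, and the 5 genes with a mean of at least 5 CPM that correlated best with the mean of the members in a tissue. Some genes that this rule names are not reported here. Members and lists were chosen with earlier results of these data known. Replicates of a group differed by more than counting error in all 20 pairs (chi-square over degrees of freedom from 2.49 to 69.9, with 1 for counting error alone). Whether replicate numbers pair the samples was checked on residuals of genes whose mean log2 CPM was over 3. Pairing was taken to be present only where at least 3 numbers were shared and each r was above 0.1. That held in WT cultures (r = 0.41, 0.40, 0.68), in KO cultures (r = 0.39, 0.72, 0.64) and for KO against WT vehicle ganglia (r = 0.87, 0.83, 0.16). The main fits still used group means without pairing. Replicate number entered only as a block among the alternatives. Cultures against ganglia did not meet the rule. The IMQ groups have 2 libraries each, so pairing could not be decided for their comparisons. There r was 0.75 and 0.76 for IMQ in KO ganglia and 0.23 and 0.20 in WT ganglia. For KO against WT with IMQ it was 0.04 and 0.04. The deviations of 2 libraries from their mean mirror each other. The values printed for each of these comparisons are thus not separate observations, and those for KO against WT with IMQ are equal by construction. All r given here are correlations across genes, which are not independent replicates.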

Additional observations from a re-analysis of the deposited data

How the results depend on the processing

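The number of members called in each of the 10 comparisons (9 in both comparisons of cultures with ganglia, 0 in the others) was the same with DESeq2, with RLE size factors in edgeR, without the filter on low counts, with the replicate block, with only the groups compared in the fit where that was run, and with each library left out in turn. With the replicate block the rPOSTN change of Egr3 in KO cultures was log2 −0.36 ± 0.13 (unadjusted p = 0.00978, adjusted p = 0.999). A replicate block within genotype, chosen after seeing the data, gave −0.48 ± 0.14 for the genotype difference of that change (adjusted p = 0.967). The block changed no call of a member. Values near 0 that changed sign were Egr1 (0.16) and Npas4 (0.042) for IMQ in WT ganglia with the replicate block, and, without the filter on low counts, Nr4a1 for IMQ in KO ganglia (0.00099) and Arc for the genotype difference of the rPOSTN change (0.00093). On unscaled library totals 7 of 80 group means of CPM moved by more than their SD. The cause of these shifts was not tested. With 2 or 3 libraries a group, an uncalled value says nothing of stability.

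Some uncalled log2 differences changed sign when 1 library was left out. Their lowest and highest values over these fits follow. For IMQ in WT ganglia they were Fos −0.22 to 0.29, Egr1 −0.34 to 0.20, Egr3 −0.61 to 0.16, Npas4 −0.38 to 0.20 and Dusp1 −0.32 to 0.081. In KO ganglia IMQ gave Fos −0.51 to 0.19, Egr1 −0.85 to 0.42, Egr3 −0.082 to 0.16, Arc −0.23 to 0.67, Nr4a1 −0.25 to 0.21 and Dusp1 −0.67 to 0.14. The genotype difference of the IMQ change gave Fos −0.52 to 0.18, Egr1 −0.80 to 0.48, Egr3 −0.13 to 0.64, Arc −0.48 to 0.42 and Dusp1 −0.56 to 0.25. KO against WT gave, in vehicle ganglia, Fos −0.42 to 0.050, Junb −0.16 to 0.038, Egr1 −0.44 to 0.11, Egr3 −0.47 to 0.30, Ier2 −0.033 to 0.31, Npas4 −0.36 to 0.15 and Dusp1 −0.099 to 0.058. In IMQ ganglia the same contrast gave Fosb −0.14 to 0.20, Egr1 −0.93 to 0.34, Arc −0.25 to 0.65, Nr4a1 −0.18 to 0.27, Ier2 −0.36 to 0.15 and Dusp1 −0.60 to 0.22. For rPOSTN in WT cultures they were Fos −0.025 to 0.15, Fosb −0.25 to 0.19, Junb −0.091 to 0.018, Nr4a1 −0.0058 to 0.11 and Dusp1 −0.042 to 0.037. In KO cultures rPOSTN gave Junb −0.13 to 0.33, Egr1 −0.43 to 0.015, Arc −0.29 to 0.095, Nr4a1 −0.26 to 0.18 and Ier2 −0.31 to 0.024. The genotype difference of the rPOSTN change gave Fos −0.017 to 0.28, Junb −0.088 to 0.35, Arc −0.17 to 0.21, Nr4a1 −0.32 to 0.13, Ier2 −0.22 to 0.12 and Npas4 −0.94 to 0.76. WT cultures against ganglia gave Npas4 −0.21 to 0.16. In KO that contrast gave Npas4 −1.54 to 0.15.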

Other observations

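The spread between libraries of a group differed among the members. In WT vehicle ganglia the coefficient of variation of the CPM was 53.7% for Egr3, 41.1% for Egr1, 38.1% for Fosb and 33.7% for Fos, and 7.37% for Nr4a1, 9.02% for Arc and 9.24% for Junb (3 libraries each). In WT control cultures it was 12.8% for Egr3, 6.40% for Egr1 and 6.74% for Fos, while Fosb stayed at 33.1% and Arc was at 17.2%. The coefficient of Npas4, the member with the fewest counts, was 27.6% in those cultures and 103% in KO control cultures. Differences in spread between groups were not tested.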
